A study of Mus musculus with 4 samples.

Results

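Transforming growth factor beta (TGF-beta) signalling in the injured mouse carotid artery was followed through 10 genes chosen by name, out of 31053 genes listed in the count matrices. They were the ligands Tgfb1, Tgfb2 and Tgfb3, the receptors Tgfbr1, Tgfbr2 and Tgfbr3, and the latent TGF-beta binding proteins Ltbp1, Ltbp2, Ltbp3 and Ltbp4. All 10 were detected, with 2397 (Tgfbr3) to 11476 (Ltbp4) unique molecular identifiers (UMIs, counted mRNA molecules) over all cells kept. Carotid arteries of male C57BL/6 mice, 11 weeks old before injury, were dissociated and sequenced as single cells by the 10x Genomics 3′ method, uninjured (day 0) and on days 3, 7 and 14 after wire injury, a procedure that denudes the inner lining and damages the vessel wall. Each time point was 1 library made from pooled vessels of several animals, vessels with thrombosis were left out, and dead cells were removed. There were therefore no replicates and no test between days: intervals are 95% intervals that cover counting error only, and a difference between days cannot be told apart from one between libraries.

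TGF-beta ligands are secreted in a latent form, held inactive by their own propeptide. Latent TGF-beta binding proteins tether this latent complex to fibrillin and fibronectin in the extracellular matrix, from which integrins, proteases or thrombospondin release the active ligand. Active ligand binds the receptor encoded by Tgfbr2, which recruits and phosphorylates the kinase encoded by Tgfbr1, and the signal passes to SMAD proteins in the nucleus, while Tgfbr3 encodes betaglycan, a co-receptor that presents ligand. In arteries the pathway is known for matrix production, for the contractile state of smooth muscle cells and for restraint of immune cells.

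The reference holds 12 promoter windows for 8 of the 10 genes (RefSeq, build GRCm38.p6), and the 250 bases before each start site were searched on both strands for 6 motifs, none of which contains another. Windows of 4 genes whose levels differed between cell classes and days are printed 5′ to 3′ on the gene's strand. The first pair is Tgfb1 (chr7:25686752-25687001, plus strand) and the first Tgfbr1 window (chr4:47352972-47353221, plus strand), of which Tgfb1 is shown for its level in immune cells and Tgfbr1 for its course in monocyte/macrophage-like cells, and the capitals mark GGGCGG or its reverse complement, the GC box bound by Sp1-type factors.
Tgfb1: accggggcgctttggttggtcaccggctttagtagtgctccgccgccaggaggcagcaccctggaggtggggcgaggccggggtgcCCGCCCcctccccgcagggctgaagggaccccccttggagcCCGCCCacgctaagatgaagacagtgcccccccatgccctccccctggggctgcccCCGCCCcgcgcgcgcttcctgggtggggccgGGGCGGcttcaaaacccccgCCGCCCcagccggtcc
Tgfbr1: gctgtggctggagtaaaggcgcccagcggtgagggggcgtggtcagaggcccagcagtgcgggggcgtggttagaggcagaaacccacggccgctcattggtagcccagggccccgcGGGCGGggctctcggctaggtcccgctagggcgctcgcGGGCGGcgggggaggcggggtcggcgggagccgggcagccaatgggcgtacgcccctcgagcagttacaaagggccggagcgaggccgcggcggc
The second pair is Tgfb2 (chr1:186705990-186706239, minus strand) and Ltbp2 (chr12:84876492-84876741, minus strand), expressed in stromal cells, and the capitals mark CAGAC or its reverse complement, letters that SMAD proteins can bind.
Tgfb2: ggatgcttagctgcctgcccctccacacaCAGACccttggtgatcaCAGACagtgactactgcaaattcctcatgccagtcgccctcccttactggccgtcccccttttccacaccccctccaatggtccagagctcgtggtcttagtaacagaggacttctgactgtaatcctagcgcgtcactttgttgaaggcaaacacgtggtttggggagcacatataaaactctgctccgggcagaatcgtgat
Ltbp2: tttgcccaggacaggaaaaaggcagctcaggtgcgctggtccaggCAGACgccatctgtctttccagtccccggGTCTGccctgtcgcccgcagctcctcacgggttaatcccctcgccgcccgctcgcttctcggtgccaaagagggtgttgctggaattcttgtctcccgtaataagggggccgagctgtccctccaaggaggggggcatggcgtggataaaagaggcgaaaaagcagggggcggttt
Tgfb1 held 5 GC boxes in a window of 75.2% GC, and the first Tgfbr1 window held 2. Tgfb2 had no GC box but 2 copies of CAGAC and a TATAAA box, in a window of 53.6% GC. Ltbp2 held 2 copies of CAGAC and 2 GC boxes. GGGCGG occurred in 32.7% of the 32851 promoter windows of that length, CAGAC in 42.2% and TATAAA in 12.4%, so that CAGAC in particular is common. No member window held the palindrome GTCTAGAC (0.167% of all windows), TGANTCA (6.75%), the letters read by AP-1, or CATTCC (12.6%), those read by TEAD factors. A match describes the letters of a window and is not evidence of binding.

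The libraries of days 0, 3, 7 and 14 held 333, 1689, 3001 and 1138 barcodes and from 2672722 (day 0) to 27973418 (day 7) UMIs. Barcodes were shared between libraries: days 0 and 3 shared 152 (45.6% of those of day 0) and days 7 and 14 shared 64, while days 3 and 7 shared 1 and the other pairs none. In 214 of these 217 pairs 1 copy had at least 5 times the UMIs of the other, and the shallow copy was removed (48 from day 0, 104 from day 3, 62 from day 14); values with both copies kept, or both left out, are given beside several of the results below. How the copies arose was not tested. After filtering, 281, 1403, 2693 and 1029 cells remained, and 9 classes were named from marker genes in 22 clusters, with 9.67% of cells left unnamed. Fibroblast-like cells numbered 222, 142, 212 and 511 on days 0, 3, 7 and 14, smooth muscle-like cells 12, 83, 60 and 73, endothelial-like cells 7, 47, 66 and 17 and monocyte/macrophage-like cells 3, 507, 895 and 172. All 9 fibroblast and all 8 smooth muscle markers were detected in the respective classes on every day, and 6 of 8 endothelial markers in the endothelial-like cells of day 0.

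Levels are given as CPM, the UMIs of a gene per 1000000 UMIs of a class in a library. They compare days and classes for 1 gene and not genes with each other. A ratio of at least 2 or at most 0.5 is called past 2-fold, and counts of such genes are read against the share of all genes past 2-fold in the same comparison.

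**Figure D1:**
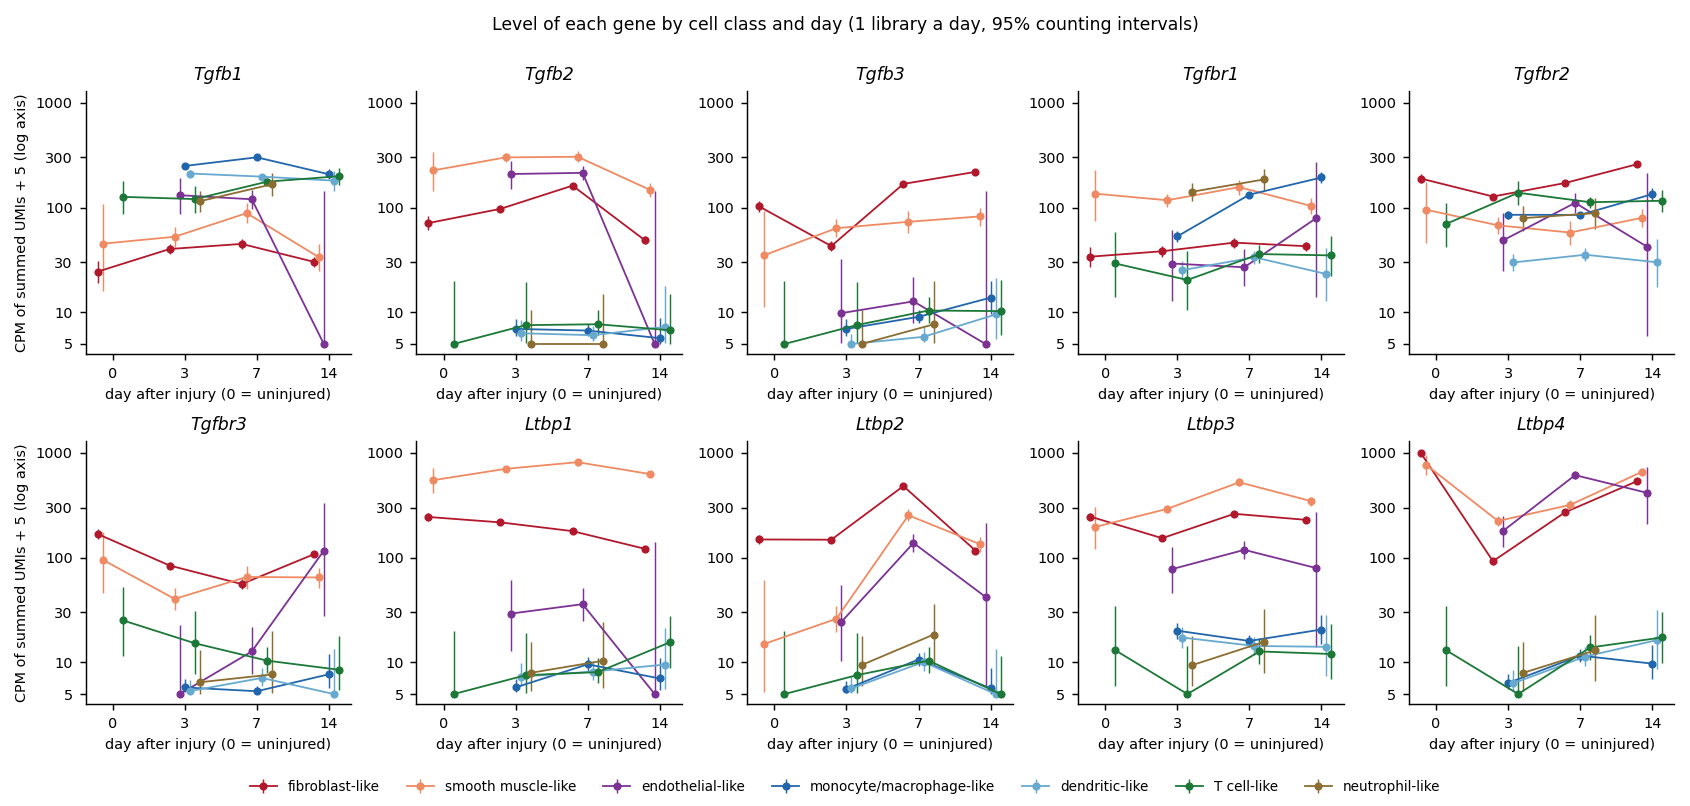
Level of each gene in 7 cell classes by day (x axis, evenly spaced; y axis, CPM of summed UMIs with 5 added, log scale; points from classes with at least 10 cells, bars are 95% counting intervals). Tgfb1 was highest in immune classes, although endothelial-like cells overlapped neutrophil-like ones over all days. Tgfb2, Tgfb3, Ltbp1, Ltbp2 and Ltbp3 were highest in stromal classes, whereas Ltbp4 on day 7 was highest in endothelial-like cells (606 CPM). In fibroblast-like cells Ltbp4 was at its lowest on day 3 and Ltbp2 at its highest on day 7.

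Of the ligands, Tgfb1, the isoform known for control of immune cells, was higher in immune classes than in fibroblast-like and smooth muscle-like cells after injury. In monocyte/macrophage-like cells it stood at 244 (231 to 258), 296 (285 to 307) and 203 (180.2 to 227) CPM on days 3, 7 and 14, and the 3 such cells of day 0 held 4 UMIs. In fibroblast-like cells the levels on days 0, 3, 7 and 14 were 19.5 (14.1 to 26.2), 35.2 (30.9 to 40.0), 40.0 (35.2 to 45.3) and 25.4 (22.2 to 28.9) CPM, far under those of the immune classes on each injured day. Smooth muscle-like cells held 40.2 (10.9 to 103), 47.6 (37.1 to 60.2), 83.4 (65.7 to 104) and 28.6 (19.8 to 39.9) CPM. These intervals overlapped those of fibroblast-like cells on days 0, 3 and 14, but not on day 7. The smooth muscle day 14 to day 3 ratio was 0.600, but 1.64 with CPM averaged over single cells, where that of day 7 went from 1.75 to 2.61. On day 7 B cell-like cells, at 288 (235 to 349) CPM, and NK cell-like cells, at 284 (249.5 to 323), did not differ from monocyte/macrophage-like cells beyond counting error. Dendritic-like cells, at 192 (179.6 to 205), T cell-like cells, at 171 (156 to 188), and neutrophil-like cells, at 162 (123 to 208), formed a lower group. The B cell-like cluster, led by Igkc, also carried the plasmacytoid dendritic genes Siglech and Cox6a2. Thinned to 1000 UMIs per cell, 21.7%, 30.0% and 21.2% of monocyte/macrophage-like cells on days 3, 7 and 14 had a Tgfb1 UMI against 3.55%, 3.86% and 1.82% of fibroblast-like cells. Unthinned, the shares were 75.7%, 79.6% and 61.6% at median depths of 8052, 9340 and 7899.5 UMIs, and 62.0%, 42.0% and 24.3% at 42782, 24194 and 18454, so that the classes differed less where depth was not equalised.

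Within fibroblast-like cells Tgfb1 was 2.05 (interval 1.48 to 2.91) times as high on day 7 as on day 0, just past 2-fold, and under 2 in 8 of 12 alternative processings (range 1.58 to 2.34). Day 3 was 1.81 times day 0, and 2.41 times with both copies of shared barcodes left out. The cells that held the Tgfb1 molecules differed by day: fibroblast-like cells held 51.8%, 9.88%, 4.99% and 27.5% of each library's Tgfb1 UMIs on days 0, 3, 7 and 14, and monocyte/macrophage-like cells 4.82%, 51.9%, 55.6% and 35.8%. T cell-like cells held 36.1% on day 0. The numbers of cells captured set these shares in part.

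Tgfb2, the isoform that relies most on betaglycan for binding, was a stromal transcript. Smooth muscle-like cells held 221 (138 to 335), 295 (268 to 324), 299.7 (265 to 337) and 143 (122 to 166) CPM on days 0, 3, 7 and 14, and fibroblast-like cells 66.1 (55.8 to 77.7), 92.1 (85.0 to 99.6), 157 (147 to 167) and 43.9 (39.7 to 48.5) CPM. On every day the smooth muscle-like level was the higher one, and both classes were at their lowest on day 14. In fibroblast-like cells the day 7 level was 2.37 (interval 1.99 to 2.84) times that of day 0 and the day 14 level 0.665 (interval 0.549 to 0.810) times, and in smooth muscle-like cells day 14 stood at 0.484 (interval 0.403 to 0.579) times day 3. Day 3 was 1.39 times day 0, and 2.50 times with both copies of shared barcodes left out. The day 7 ratio was 1.01 with finer clustering, which left 88 fibroblast-like cells on day 7. With both copies of shared barcodes left out the day 7 ratio was 4.97 and the day 14 ratio 1.09, which turns its direction. The smooth muscle ratio was above 0.5 in 8 of 13 alternatives (up to 0.658). In monocyte/macrophage-like, dendritic-like, T cell-like and NK cell-like cells the observed Tgfb2 level was at most 3.69 CPM in any library. A count of 0 sets no such limit in a small sum. Monocyte/macrophage-like cells of day 0 held 0 Tgfb2 UMIs among 18046, and NK cell-like cells of day 14 held 0 among 91875. Endothelial-like cells showed 204 and 209 CPM on days 3 and 7, but the mean over single cells was 81.4 and 32.3 CPM: the deepest 10% of these cells held 76.0% and 69.4% of the class's UMIs.

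Tgfb3, the isoform known from palate fusion and wound repair, was highest in fibroblast-like cells on days 0, 7 and 14, with 97.3 (84.7 to 111), 37.9 (33.4 to 42.8), 163 (153 to 173) and 214 (204 to 223) CPM on days 0, 3, 7 and 14. Day 3 was the lowest and day 14 the highest, and no 2 of these intervals overlapped. Against day 0 the ratios were 0.389 (interval 0.323 to 0.469) on day 3, 1.67 (interval 1.44 to 1.95) on day 7 and 2.20 (interval 1.91 to 2.54) on day 14. The day 3 value became 0.716 when marked doublets were kept, a setting in which only 33 cells of day 3 were named fibroblast-like, and 0.657 without the cluster led by Saa3 described below. The day 7 value was 2.81 and 2.56 under these settings, past 2-fold, and ranged from 1.65 to 2.81 over all alternatives. The day 14 value ranged from 1.80 to 2.24 over all alternatives. Smooth muscle-like cells held 58.5 (46.8 to 72.2), 68.1 (52.2 to 87.3) and 77.3 (62.3 to 94.8) CPM on days 3, 7 and 14, with overlapping intervals between neighbouring days and a day 14 to day 3 ratio of 1.32 (interval 0.974 to 1.79) that was 2.51 with finer clustering, and monocyte/macrophage-like cells at most 8.83 CPM. A small unnamed cluster of 85 shallow cells (median 835 UMIs), led by C1qtnf3, had Tgfb3 among its 3 leading genes, at 537, 349 and 639.8 CPM on days 0, 7 and 14.

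**Figure D2:**
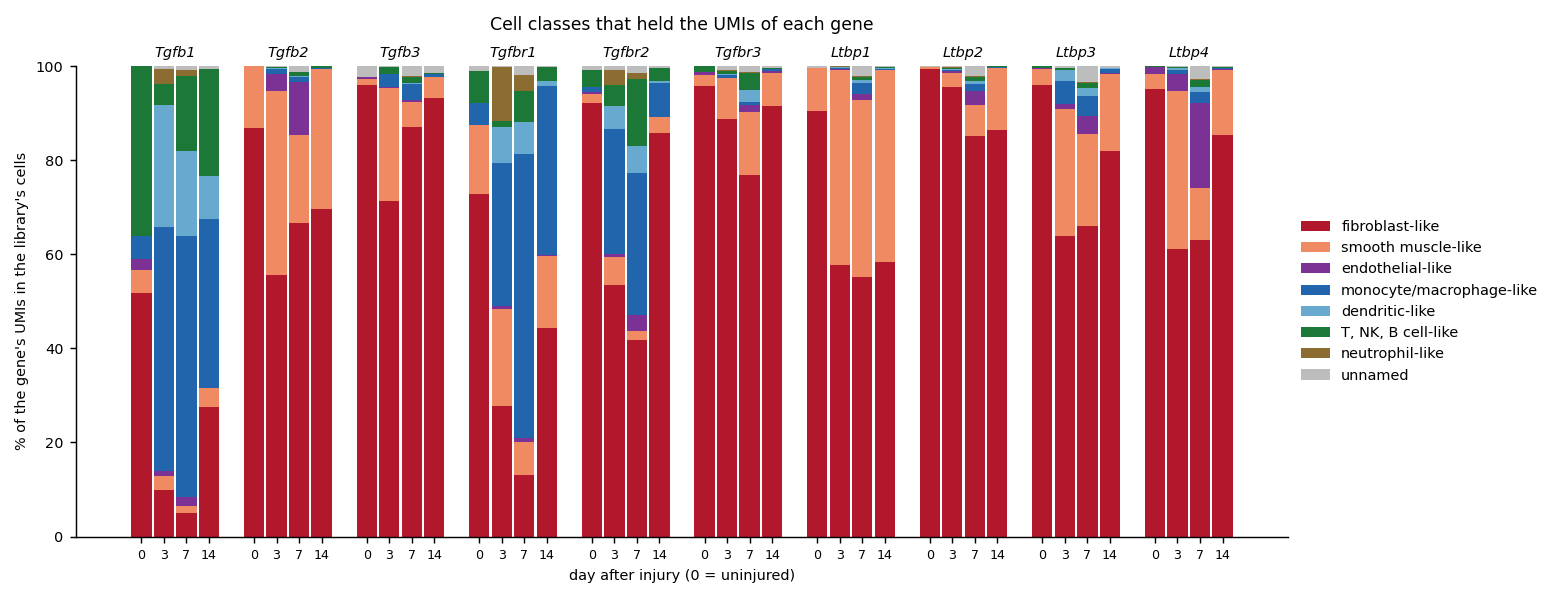
Cell classes that held the UMIs of each gene in each library (x axis, day, grouped by gene; y axis, percent of the gene's UMIs in all cells kept). The largest part of Tgfb1 lay in fibroblast-like cells on day 0 (51.8%, with 36.1% in T cell-like cells) and in monocyte/macrophage-like cells on day 7 (55.6%), whereas Ltbp2 stayed with fibroblast-like cells on every day (85.1% to 99.4%).

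Among the receptors, Tgfbr1, the signalling kinase, was higher in monocyte/macrophage-like cells on each later day after injury. Its level was 48.0 (42.2 to 54.5), 128 (120.4 to 135) and 188 (167 to 212) CPM on days 3, 7 and 14, with no overlap between the intervals, and day 0 held 4 UMIs in 3 cells. Day 7 was 2.65 (interval 2.31 to 3.06) times and day 14 3.92 (interval 3.29 to 4.67) times day 3, and both ratios stayed past 2-fold in all 13 alternatives (2.36 to 3.19 and 2.77 to 4.75). Neutrophil-like cells stood at 136 (110.0 to 167) and 180.4 (139.8 to 229) CPM on days 3 and 7, and neutrophil markers summed to 287, 279 and 124 CPM in the monocyte/macrophage-like class on days 3, 7 and 14, and their part in the Tgfbr1 result was not tested. Dendritic-like (20.3, 28.5 and 18.2 CPM) and T cell-like cells (15.4, 30.98 and 30.0 CPM) were lower on each injured day. Fibroblast-like cells were near level at 29.0 (22.3 to 37.0), 33.3 (29.1 to 37.9), 41.3 (36.4 to 46.6) and 37.8 (33.8 to 42.0) CPM, and smooth muscle-like cells held 131, 112, 152 and 98.3 CPM, with ratios to day 3 of 1.35 on day 7 and 0.876 on day 14, neither of which kept its direction over the alternatives (0.602 to 2.65 and 0.786 to 1.64). The fibroblast ratio of day 7 to day 0 was 1.42, and 2.15 with both copies of shared barcodes left out. The order of classes on day 7 was neutrophil-like, smooth muscle-like and monocyte/macrophage-like, of which the first pair overlapped and the second overlapped the third.

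The 4 clusters named monocyte/macrophage-like showed the same order of days for Tgfbr1. Cells of 1 of them, led by Mgl2 and by cell cycle genes, were placed in classes singly, by their neighbours. Part of its 80, 36 and 19 cells on days 3, 7 and 14 thus counted as dendritic-like or unnamed. Its values below are of the whole cluster. In cells led by Pf4, which also carried F13a1, the levels on days 3, 7 and 14 were 39.1 (32.3 to 46.9), 125 (109 to 143) and 189 (150.4 to 233) CPM. In cells led by the complement gene C1qa they were 72.1 (51.5 to 98.2), 165 (151 to 180.0) and 203 (172 to 237) CPM, and in the monocyte cluster led by Chil3 64.1 (48.7 to 82.8), 104 (94.2 to 115) and 146 (90.4 to 223) CPM. Cells led by Mgl2 and by cell cycle genes had the lowest value in each library, at 26.7 (19.3 to 35.9), 90.7 (73.6 to 111) and 93.9 (56.5 to 147) CPM, although their interval overlapped that of the Pf4-led cells on days 3 and 7 and that of the Chil3-led cells on days 7 and 14. In all 4 clusters day 3 was the lowest, and its interval did not reach that of day 7. Tgfb1 ordered the clusters differently: the Chil3-led cells were highest on each day, with 483, 427 and 334 CPM against 181, 196 and 159 in the Pf4-led cells, although on day 14 only 18 Chil3-led cells remained.

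**Figure D3:**
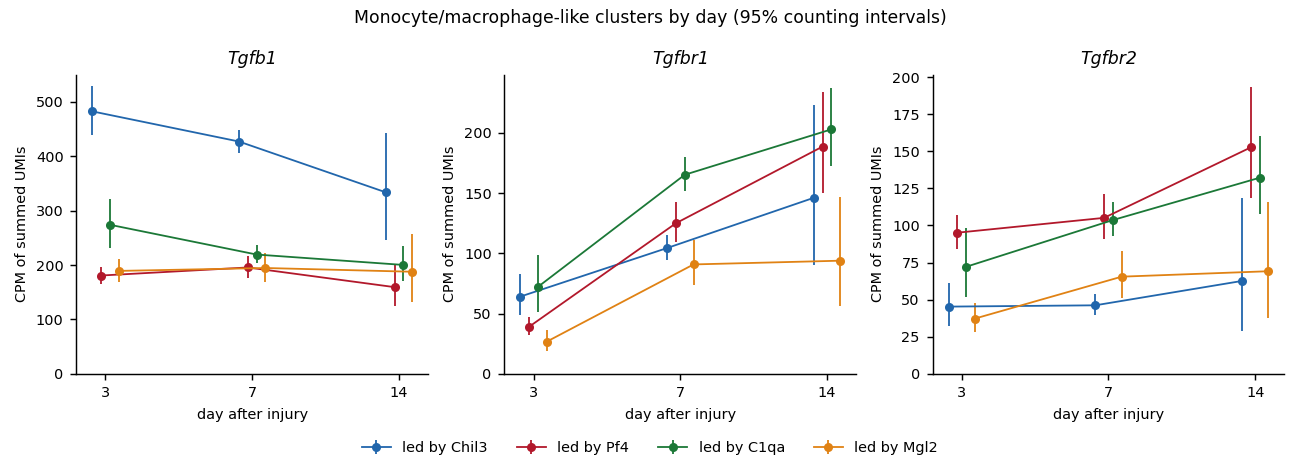
Tgfb1, Tgfbr1 and Tgfbr2 in the 4 clusters named monocyte/macrophage-like, by their leading gene (x axis, day; y axis, CPM of summed UMIs; bars are 95% counting intervals). The Mgl2-led cluster is shown whole, with its cells that were classed as dendritic-like or left unnamed. Tgfbr1 was lowest on day 3 in every cluster, whereas Tgfb1 separated the Chil3-led cells from the other 3.

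Tgfbr2, the ligand-binding receptor, was broadly detected. Fibroblast-like cells held 184 (166 to 202), 122 (114 to 131), 166 (156 to 177) and 254 (243 to 264) CPM on days 0, 3, 7 and 14, lowest on day 3 and highest on day 14, with ratios to day 0 of 0.665, 0.905 and 1.38, none past 2-fold. The ratios of days 3 and 7 were not stable in direction: with no doublets removed they were 1.64 and 1.79, and over all alternatives they ranged from 0.661 to 1.64 and from 0.897 to 1.79. Monocyte/macrophage-like cells held 80.2 (72.6 to 88.4), 79.9 (74.3 to 85.9) and 129 (111 to 149) CPM on days 3, 7 and 14 and T cell-like cells 133 (99.5 to 175), 107 (95.002 to 121) and 111 (85.3 to 142) CPM, so that these classes overlapped on day 14. Dendritic-like cells were the lowest class with many cells, at 24.9, 30.5 and 25.04 CPM. Smooth muscle-like cells were below fibroblast-like cells on every day, at 90.4, 62.6, 52.7 and 74.8 CPM.

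Tgfbr3 (betaglycan) was mainly a stromal transcript. Fibroblast-like cells held 163 (147 to 181), 79.0 (72.5 to 86.0), 50.9 (45.5 to 56.9) and 103 (96.0 to 109) CPM on days 0, 3, 7 and 14, highest before injury and lowest on day 7. The ratios to day 0 were 0.485 (interval 0.424 to 0.556), 0.313 (interval 0.268 to 0.365) and 0.629 (interval 0.557 to 0.713). On day 3 the ratio stayed at or under 0.5 in only 1 of 13 alternatives, and it was 0.814 with both copies of shared barcodes left out. When each cell was thinned to 1000 UMIs the day 7 ratio was 0.769 and that of day 14 1.14, above 1. Smooth muscle-like cells held 35.4, 60.4 and 59.7 CPM on days 3, 7 and 14, and monocyte/macrophage-like cells at most 2.72 CPM.

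The binding proteins each had their own course. Ltbp4, which takes part in elastic fibre assembly, was at 985 (944 to 1027), 87.4 (80.4 to 94.7), 265 (253 to 278) and 531 (516 to 546) CPM in fibroblast-like cells on days 0, 3, 7 and 14. Day 0 was the highest, day 3 the lowest, and the later days lay between. The ratios to day 0 were 0.0887 (interval 0.0809 to 0.0972), 0.269 (interval 0.253 to 0.287) and 0.539 (interval 0.512 to 0.567), and those of days 3 and 7 stayed past 2-fold in all 13 alternatives, from 0.0504 to 0.403 and from 0.268 to 0.489. On day 3 the ratio was 0.194 with both copies of shared barcodes left out and 0.260 without the Saa3-led cluster.

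Smooth muscle-like cells showed the same order of days for Ltbp4, 763 (601 to 955), 218 (195 to 244), 313 (278 to 351) and 653 (608 to 701) CPM on days 0, 3, 7 and 14, where day 14 was 2.99 (interval 2.62 to 3.42) times day 3 and past 2-fold in all 13 alternatives (2.39 to 4.86). Day 7 was 1.43 times day 3, but 0.804 times with cells of at least 500 genes and at most 10% mitochondrial UMIs. The day 0 value rested on 12 cells and 76 UMIs. Endothelial-like cells held 1926, 174, 606 and 409 CPM, from 33, 36, 470 and 11 UMIs, and on day 7 their sum also held 25307 CPM of the 4 erythroid marker genes. In cells thinned to 1000 UMIs, 63.3%, 20.6%, 23.2% and 41.6% of fibroblast-like cells had an Ltbp4 UMI on days 0, 3, 7 and 14, against 0.604% and 0.683% of monocyte/macrophage-like cells on days 3 and 7 and none of 146 on day 14, which allows up to 2.05% (3 of 146). Unthinned, 93.2%, 85.2%, 80.2% and 93.5% of fibroblast-like cells had a UMI, at median depths of 9130.5, 42782, 24194 and 18454 UMIs, and 1.38%, 6.82% and 2.91% of monocyte/macrophage-like cells, so that without equal depth day 7, not day 3, had the lowest share.

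Ltbp2, a relative that associates with fibrillin microfibrils and is not known to bind the latent ligand, had its highest level on day 7 in fibroblast-like and smooth muscle-like cells. In fibroblast-like cells it was 144 (129 to 161), 143 (134 to 152), 475 (458 to 493) and 112 (105 to 119) CPM on days 0, 3, 7 and 14, highest on day 7 and lowest on day 14, and day 7 was 3.30 (interval 2.94 to 3.72) times day 0. That ratio was past 2-fold in all 13 alternatives, from 2.14 with marked doublets kept to 9.96 with each library clustered on its own. The ratios of days 3 and 14, 0.994 and 0.776, were 3.04 and 2.26 in that last setting, and 1.21 and 1.14 with both copies of shared barcodes left out, so that the place of day 14 below day 0 did not hold there. In smooth muscle-like cells it was 21.1 (14.3 to 29.9), 248 (217 to 283) and 129 (109 to 151) CPM on days 3, 7 and 14, with 1 UMI on day 0. Day 7 was 11.8 (interval 8.06 to 17.7) times and day 14 6.10 (interval 4.12 to 9.28) times day 3. Keeping both copies of shared barcodes brought these to 3.66 and 2.11, and leaving both out to 9.62 and 4.31. The 9 fibroblast markers, all detected, summed to 9548, 12204 and 8405 CPM in the smooth muscle-like sums of days 3, 7 and 14, while Dcn, a fibroblast proteoglycan, stood at 45.6, 216 and 230.3 CPM, and their part in the Ltbp2 result was not tested. Endothelial-like cells held 19.4 and 133 CPM on days 3 and 7.

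Ltbp1, the first described carrier of latent TGF-beta, was highest in smooth muscle-like cells, at 542 (407 to 708), 697 (655 to 741), 807 (749.6 to 867) and 622 (578 to 668) CPM on days 0, 3, 7 and 14. The order of days within them was not stable, since day 7 was 1.16 times day 3 but 0.521 times with cells of at least 500 genes and at most 10% mitochondrial UMIs. Fibroblast-like cells held 239 (219 to 260.2), 212 (201 to 223), 174 (164 to 184) and 116 (109.5 to 124) CPM, lower on each later day (although day 3 to day 0 ranged from 0.455 to 1.28 over the alternatives), and day 14 stood at 0.487 (interval 0.439 to 0.542) times day 0, a ratio above 0.5 in 5 of 13 alternatives (up to 0.602). Smooth muscle-like cells, fewer than fibroblast-like cells on each day, held 41.5%, 37.7% and 41.0% of all Ltbp1 UMIs on days 3, 7 and 14. Ltbp3, also a carrier of the latent complex, was 286 (259.7 to 315), 517 (471 to 566) and 340.4 (308 to 375) CPM in smooth muscle-like cells on days 3, 7 and 14, where day 7 was 1.81 (interval 1.58 to 2.06) times day 3, but 0.869 times with cells of at least 500 genes and at most 10% mitochondrial UMIs. In fibroblast-like cells Ltbp3 was 241 (221 to 263), 148 (139 to 158), 257 (244 to 269.5) and 224 (214 to 234) CPM, lowest on day 3 and with no ratio to day 0 past 2-fold. The day 3 ratio of 0.614 was 1.14 with CPM averaged over single cells and 1.06 without the Saa3-led cluster, and 0.412 with finer clustering, past 2-fold.

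In monocyte/macrophage-like cells Ltbp1, Ltbp2 and Ltbp4 stood at 0.784, 0.588 and 1.37 CPM on day 3 and at 4.61, 5.68 and 6.64 CPM on day 7. NK cell-like cells held 4.74 (1.29 to 12.1), 14.2 (7.35 to 24.8) and 14.2 (7.35 to 24.8) CPM on day 7, from 4, 12 and 12 UMIs, and T cell-like cells 3.10, 5.42 and 8.91 CPM. The 9 fibroblast markers summed to 452, 873 and 866 CPM in the monocyte/macrophage-like class on days 3, 7 and 14. The part of the fibroblast markers in these low values was not tested. Tgfb3 in this class was at 1.96, 4.07 and 8.83 CPM on days 3, 7 and 14 against 2.56, 5.42 and 5.29 in T cell-like cells, and the day 14 values rest on 13 and 3 UMIs, with intervals that overlap.

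Counted together in fibroblast-like cells on day 3, none of the 10 genes was at least 2-fold higher than on day 0, where 14.1% of all 11461 genes with at least 20 UMIs were, and 3 (Tgfb3, Tgfbr3 and Ltbp4) were at least 2-fold lower, against 10.3% of all genes. Some alternatives did place genes past 2-fold higher on day 3: Tgfb1 and Tgfb2 with both copies of shared barcodes left out, Tgfb1 (2.24) and Ltbp2 (3.04) with each library clustered on its own, and Tgfb2 (2.10) without the deepest 10% of cells. On day 7, 3 genes (Tgfb1, Tgfb2 and Ltbp2) were higher against 13.5%, and 2 (Tgfbr3 and Ltbp4) lower against 8.54%. On day 14, 1 gene (Tgfb3) was higher against 9.65%, and 1 (Ltbp1) lower against 4.53%. The median log2 ratio of the 10 genes was -0.38, 0.30 and -0.24 on the 3 days, beside 0.004, 0.02 and -0.01 over all genes. With 10 genes, 1 to 3 past 2-fold in a direction is a small number, and the 3 comparisons share the day 0 library.

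In smooth muscle-like cells, compared with day 3 because day 0 held only 12, 1 of 10 genes (Ltbp2) was at least 2-fold higher on day 7, against 6.35% of all genes, and none was lower, against 4.05%. On day 14, 2 genes (Ltbp2 and Ltbp4) were higher against 4.84%, and 1 (Tgfb2) lower against 4.23%. In monocyte/macrophage-like cells 9 genes had enough UMIs on day 7 and 5 were higher than on day 3, against 6.03% of all genes, and none lower, against 3.93%. The 5 were Tgfbr1 and, at the low levels given above, Tgfb3, Ltbp1, Ltbp2 and Ltbp4. On day 14, 2 of 5 genes (Tgfbr1 and Tgfb3) were higher against 6.12%, and none lower against 9.87%. The median log2 ratio of the genes with enough UMIs was 0.48 and 0.25 in smooth muscle-like cells on days 7 and 14, beside 0.09 and 0.03 over all genes, and 1.05 and 0.69 in monocyte/macrophage-like cells, beside -0.12 and -0.16.

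**Figure D4:**
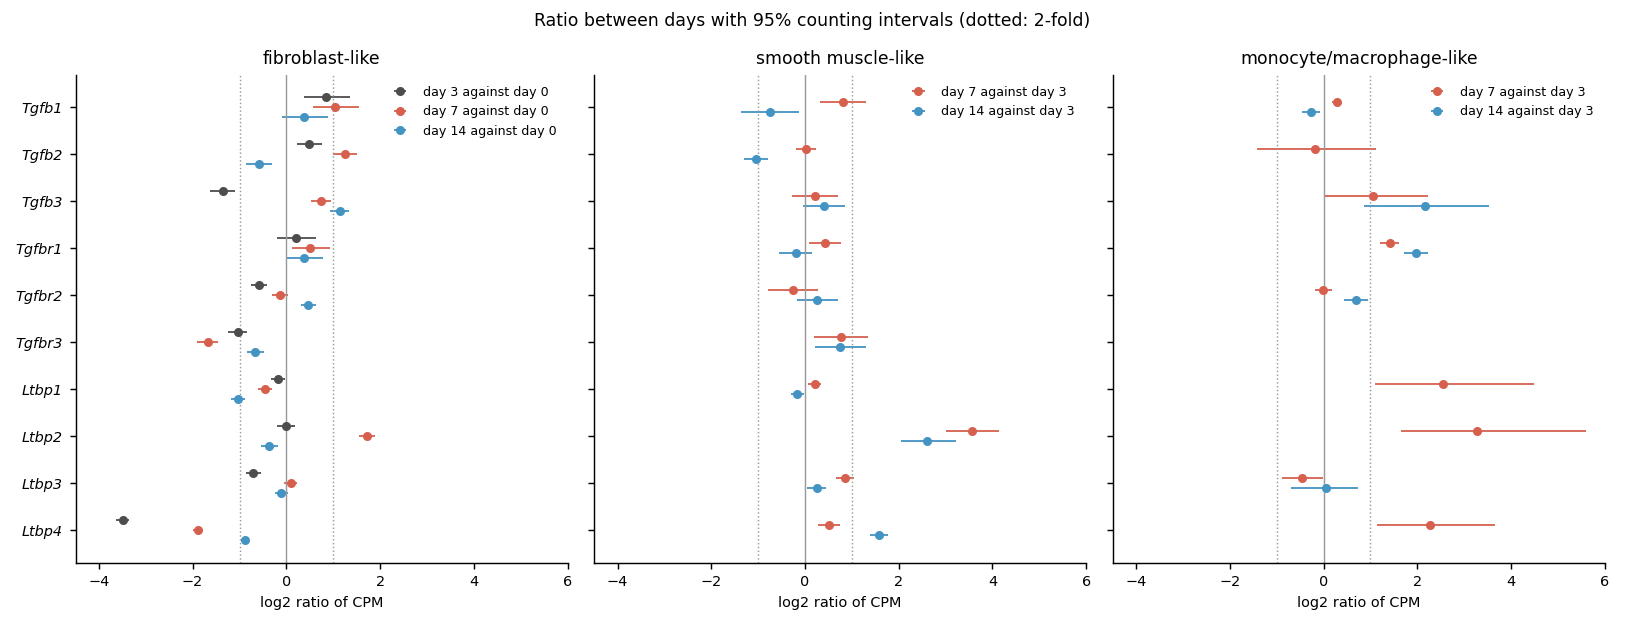
Ratios between days in 3 cell classes (x axis, log2 ratio of CPM; y axis, the 10 genes; points with at least 20 UMIs over both days, bars are 95% counting intervals, dotted lines mark 2-fold). Ltbp4 lay furthest below 0 in fibroblast-like cells on day 3, Ltbp2 furthest above it in smooth muscle-like cells on day 7, and Tgfbr1 was above 2-fold on both days in monocyte/macrophage-like cells.

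The fibroblast-like class was made of 4 clusters that took different shares of each day, and the genes of interest were not used to form them. A cluster led by Rbp4, with Smoc2 and Fbln1, held 185, 53, 27 and 113 cells on days 0, 3, 7 and 14. A cluster led by Igfbp5 and Sema3c, with Pi16 and Clec3b, held 37, 2, 10 and 86. Cells led by Angptl1 and Cilp, with Aspn and high collagen, numbered 0, 2, 53 and 277, and a deep cluster led by Saa3 and Cxcl5 (median 38628 UMIs) numbered 0, 85, 122 and 35. Most UMIs of the class thus came from Rbp4-led cells on day 0, from Saa3-led cells on days 3 and 7 (81.4% and 66.9%) and from Angptl1-led cells on day 14. In the Saa3-led cluster 20 of 85 cells on day 3 had more UMIs of Myh11, Cnn1, Itga8 and Lmod1 than of Pdgfra, Dpt, Lum and Serpinf1, against 2 of 122 on day 7 and 3 of 35 on day 14.

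Ltbp4 was lower after injury also where cluster was held fixed. In Rbp4-led cells it was 1054 (1007 to 1103), 264 (236 to 296), 524 (462 to 591) and 766 (719.6 to 815) CPM on days 0, 3, 7 and 14, the order seen in the whole class. Saa3-led cells were below them on each injured day, at 48.9 (43.2 to 55.1), 158 (146 to 171) and 456 (375 to 549) CPM. Igfbp5-led cells held 709, 259.9 and 433 CPM on days 0, 7 and 14.

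The high Ltbp2 of day 7 lay in the clusters that held no cell of the day 0 library. Saa3-led cells held 141 (132 to 152), 552 (529.9 to 575) and 178 (129 to 240.1) CPM on days 3, 7 and 14, and Angptl1-led cells 467 (430.5 to 506) and 135 (125 to 144) CPM on days 7 and 14. Rbp4-led cells were at 180.2 (161 to 201), 156 (134 to 180.0), 90.3 (65.8 to 121) and 120.0 (102 to 140.2) CPM on days 0, 3, 7 and 14, lower on day 7 than on day 0. In Igfbp5-led cells Ltbp2 was at 66.7 (40.2 to 104) CPM on day 7, overlapping the Rbp4-led cells, at 7.68 (3.97 to 13.4) CPM on day 14, and at 0 UMIs in the 37 cells of day 0, which allows up to 6.73 CPM (3 UMIs).

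Igfbp5-led cells stood apart by Tgfbr2 and Tgfbr3, but not by Tgfbr1, which over all days was 33.4 (26.4 to 41.6) CPM in them and 35.0 (29.9 to 40.8) CPM in Rbp4-led cells. Tgfbr2 was 303 (254 to 359), 674 (582 to 777) and 528 (493 to 565) CPM on days 0, 7 and 14, against 154 (136 to 173), 158 (125 to 198) and 199.7 (176 to 225) in Rbp4-led cells. Tgfbr3 was 298 (249.9 to 354), 165 (121 to 219.5) and 216 (193 to 240.0) CPM against 129 (112 to 147), 76.2 (53.9 to 105) and 86.6 (71.4 to 104). The intervals of the 2 clusters did not overlap on any of these days for either receptor, although day 7 held 10 Igfbp5-led cells. Tgfb3 had the opposite order, 24.7, 63.2 and 42.2 CPM in Igfbp5-led and 116, 142 and 179 in Rbp4-led cells, and was highest in Angptl1-led cells, at 333 (302 to 366) and 272 (259 to 286) CPM on days 7 and 14.

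**Figure D5:**
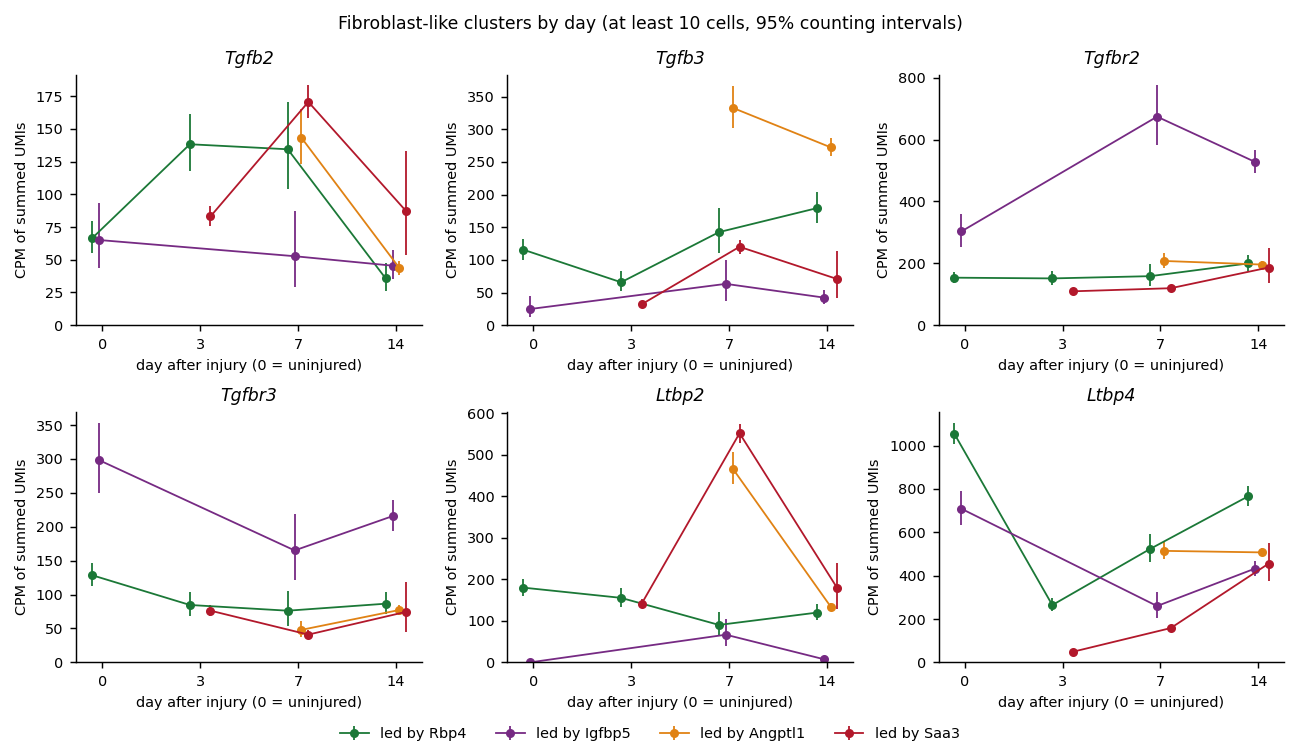
Tgfb2, Tgfb3, Tgfbr2, Tgfbr3, Ltbp2 and Ltbp4 in the 4 fibroblast-like clusters, named by their leading gene (x axis, day, evenly spaced; y axis, CPM of summed UMIs; points with at least 10 cells, bars are 95% counting intervals). Tgfbr2 and Tgfbr3 were highest in Igfbp5-led cells, Tgfb3 in Angptl1-led cells, and Ltbp2 in Saa3-led and Angptl1-led cells of day 7.

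Other genes of the pathway were taken from 5 lists. Of 15 genes of latency and activation, 13 had enough UMIs in fibroblast-like cells, and 7, 8 and (of 12) 6 were at least 2-fold higher than day 0 on days 3, 7 and 14, with 1, 0 and 0 lower. Of all genes 14.1%, 13.5% and 9.65% were higher and 10.3%, 8.54% and 4.53% lower. Thbs1, encoding thrombospondin-1, an activator of latent ligand, was at 0 UMIs on day 0, which allows up to 1.36 CPM (3 UMIs), and at 367, 342 and 111 CPM on days 3, 7 and 14, at least 270.4-fold higher on day 3 against that floor. Fbn2, the gene of the microfibril protein fibrillin-2, was also at 0 and then at 11.4, 88.5 and 122 CPM. Itgb3, an integrin subunit, was 8.21 times day 0 on day 3, and the matrix protease gene Mmp14 was 5.92 and 4.86 times on days 7 and 14. The median log2 ratio of this list was 1.36, 1.17 and 0.90 on days 3, 7 and 14.

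Of the 4 proteoglycans that bind TGF-beta, Dcn (decorin) was 0.295 and 0.403 times day 0 on days 3 and 7, Fmod (fibromodulin) 0.0250, 0.282 and 0.554 times on days 3, 7 and 14, and Aspn (asporin) 0.571, 3.89 and 7.36 times. Of the 8 genes of the SMAD pathway, Tgif1, a repressor of SMAD transcription, and Smurf1, a ubiquitin ligase, were at least 2-fold higher on each of the 3 days (Tgif1 3.56, 3.05 and 2.19 times), and Zfyve9, an anchor of SMAD proteins at the receptor, lower on days 3 and 7. Of the 4 co-receptors, Cd109, an inhibitor of the receptor complex, was 2.32 and 3.15 times day 0 on days 3 and 7. Among 9 genes known to respond to TGF-beta, Postn, Fn1 and Cthrc1 were at least 2-fold higher on each day and Tgfbi lower. Cthrc1 was 174, 525 and 265 times day 0, whose level rests on 6 UMIs (the counting interval of the day 3 ratio ran from 80.1 to 476). The median log2 ratio of the responsive genes was 0.12, 0.67 and 0.05 on days 3, 7 and 14, that of the SMAD pathway -0.16, -0.09 and -0.05 and that of the proteoglycans -1.28, -0.35 and -0.16.

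In smooth muscle-like cells, 2 of 11 genes of latency and activation (Itgb8 and Mmp2) were at least 2-fold higher on day 7 than on day 3, at 5.11 and 3.10 times, and none lower, where 6.35% and 4.05% of all genes were. On day 14 the same 2 were higher, and Thbs1 (0.334) and Lrrc32 (0.449), a surface anchor of latent ligand, lower, where 4.84% and 4.23% of all genes were. None of 8 responsive genes was past 2-fold on day 7, and none of 7 was at least 2-fold higher on day 14. Of 8 SMAD pathway genes, Tgif1 alone was past 2-fold, at 0.314 times on day 14.

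The cluster with most UMIs of the monocyte/macrophage-like class differed by day: Pf4-led on day 3 (57.7%), Chil3-led on day 7 (39.2%) and C1qa-led on day 14 (51.9%). The ratios of pathway genes that follow are of the whole class and were not computed within clusters. In monocyte/macrophage-like cells, 5 of 9 responsive genes were at least 2-fold higher than day 3 on each of days 7 and 14, and Fn1 (fibronectin) lower, at 0.172 and 0.0524 times. Of all genes 6.03% and 6.12% were higher on these days and 3.93% and 9.87% lower. Among the 5, Smad7, Skil and Pmepa1, feedback inhibitors of the pathway, were higher on both days: Smad7 was at 36.5, 89.3 and 89.0 CPM on days 3, 7 and 14, Skil at 142, 289 and 512 and Pmepa1 at 53.3, 125 and 173. T cell-like cells also held more Smad7 on day 7 than on day 3 (187 and 376 CPM). Tgif1 was 2.76 and 3.48 times day 3, and Bambi, a decoy receptor, 3.78 times on day 7. The protease gene Mmp9 was 30.3 times day 3 on day 7, and Thbs1 0.159 times on day 14. Postn and Cthrc1, also among the 5 on day 7, and the proteoglycan genes Dcn and Bgn are stromal genes. In this class Dcn was at 12.2, 48.8 and 75.4 CPM on days 3, 7 and 14, and Bgn at 18.0, 61.6 and 37.4. Both were lowest on day 3, as were the fibroblast markers given above, but the sizes and the course from day 7 to day 14 differed. The part of those markers was not tested.

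The pattern of each gene was compared with those of 7733 genes over 26 sums of 1 class in 1 library (Pearson r of log2 CPM with 10 added). The sums share libraries and classes, so r is a description with no test. Nearest to Tgfb1 were Inpp5d (r = 0.893) and Arhgap17 (r = 0.892), to Tgfb2 Me1 (r = 0.982) and Sulf1 (r = 0.977), and to Tgfb3 Sema3c (r = 0.968) and Pamr1 (r = 0.960). Tgfbr1 and Tgfbr2 had the lowest values, with Atf3 (r = 0.802) nearest to Tgfbr1 and Sec62 (r = 0.788) and Olfml3 (r = 0.736) to Tgfbr2, whereas Tgfbr3 lay near Islr (r = 0.962) and Runx1t1 (r = 0.956). Among the binding proteins, Ltbp1 was nearest to Cacna2d1 (r = 0.981) and Sod3 (r = 0.980), Ltbp3 to Lamb2 (r = 0.980) and Kank2 (r = 0.977) and Ltbp4 to Nfia (r = 0.966) and Ntn4 (r = 0.965). Nearest to Ltbp2 was Fbn1, the gene of fibrillin-1 (r = 0.936), and then Bmp1, a procollagen protease (r = 0.930). Between members r was highest for Ltbp1 and Ltbp3 (0.947) and lowest for Tgfb1 and Tgfbr3 (-0.895).

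Joint detection in single cells was rare at equal depth. In fibroblast-like cells thinned to 1000 UMIs, Tgfb3 and Ltbp2 were found together in none of 207 cells on day 0. On days 3, 7 and 14 they were found together in 1.42%, 6.28% and 1.62% of cells. Unthinned, the shares on days 0, 3, 7 and 14 were 20.7%, 45.8%, 63.7% and 36.2%. Tgfbr1 and Tgfbr2, the partners of the signalling receptor, were found together in none of 497 thinned monocyte/macrophage-like cells on day 3. The shares of thinned cells were 1.03% and 3.42% on days 7 and 14. Unthinned, they were 17.0%, 27.2% and 41.9% on days 3, 7 and 14. At this depth a missing UMI does not show that a cell lacked the transcript.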

How the data were processed

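The values were whole-number UMI counts per gene and barcode, deposited as 1 sparse matrix a library. Per the file headers the authors made them with Cell Ranger 3.0.2, while the study's methods name another version, and the build in the labels is a human one, so no coordinates were taken from the matrices. No other per-sample columns were left unused (0).

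Barcodes with under 200 genes or over 20% mitochondrial UMIs were removed (453), as were 214 shallow copies of shared barcodes. Scrublet's own threshold marked 15 of 6161 barcodes, too few to be credible, so the top scores were removed at 0.8% per 1000 barcodes (106 barcodes, 1.72%). Clustering used scanpy 1.11.5 and leidenalg 0.10.2 (2000 variable genes without the members and pathway lists, 30 components, 15 neighbours, resolution 1, mitochondrial share regressed out). A class needed 3 markers at 50 CPM or more, in 10% of cells and 3 times the lower quartile of clusters. The cell classes are not the authors' own and may differ from them for that reason alone. Cells of the Mgl2-led cluster with cell cycle genes were placed singly, in the class of at least 60% of their 15 nearest neighbours outside it. Otherwise they were left unnamed. Unnamed cells are in no class.

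Counts were summed over the cells of a class in a library. Levels carry exact Poisson and shares exact binomial (Clopper-Pearson) 95% intervals, and ratios exact conditional binomial ones (scipy 1.17.1, numpy 2.4.6), checked on simulated data. Genes with at least 20 UMIs over both sums entered a ratio, and a sum of 0 was taken as 3 UMIs. UMIs per cell are not independent between genes, and all intervals cover counting error only. Thinning drew 1000 UMIs from each cell and left out shallower cells.

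All 10 members are named. Of each pathway list, up to 3 genes with the largest ratio among those with at least 50 UMIs are named per comparison, and for each member the 2 genes of most similar pattern, over sums of at least 20 cells and 50000 UMIs. Genes behind a count of 5 or fewer are also named, chosen after their values were seen. Some genes that these rules select are not reported here. The members and lists were chosen with earlier results of these data known. Other samples of the study are not used here.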

Additional observations from a re-analysis of the deposited data

How the results depend on the processing

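Over 13 alternatives, 5 of them chosen after seeing the data, none of the 21 ratios past 2-fold changed direction, and 12 stayed past 2-fold under every alternative that gave a value: Ltbp4 on days 3 and 7 and Ltbp2 on day 7 in fibroblast-like cells, Ltbp2 on days 7 and 14 and Ltbp4 on day 14 in smooth muscle-like cells, Tgfbr1 on days 7 and 14, Tgfb3 on day 14 and Ltbp1, Ltbp2 and Ltbp4 on day 7 in monocyte/macrophage-like cells. The counts of members past 2-fold moved more. In fibroblast-like cells on day 3 the count of 3 became 1 with cells thinned to 1000 UMIs, 1 with no doublets removed and 1 without the Saa3-led cluster. On day 7 the count of 5 became 3 with thinned cells, 3 at Leiden resolution 2 and 3 with no doublets removed. On day 14 the count of 2 became 0 with CPM averaged over single cells, 0 with thinned cells, 0 without the deepest 10% of cells and 0 with shared barcodes left out of both libraries. In smooth muscle-like cells on day 7 the count of 1 became 4 with CPM averaged over single cells. In monocyte/macrophage-like cells the count of 5 on day 7 became 1 with thinned cells, where 3 genes had enough UMIs, and the count of 2 on day 14 became 1 without the deepest 10%, where 4 had enough. Thinning left 8 genes with enough UMIs in fibroblast-like cells, and the cause of the other moves was not tested. With a minimum of 50 UMIs the counts of days 3, 7 and 14 in fibroblast-like cells were again 3, 5 and 2.

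No paired analysis was possible because each time point is 1 library, and for the same reason no replicate could be left out. Day 0 held few cells other than fibroblast-like ones (12 smooth muscle-like, 7 endothelial-like, 3 monocyte/macrophage-like), and fibroblast-like cells were deeper on day 3 (median 42782 UMIs) than on day 0 (9130.5), so that rarely detected genes were limited by depth on day 0. Neither the Saa3-led nor the Rbp4-led cluster has a fibroblast marker among its 10 leading genes. Day and library cannot be told apart in any of these comparisons.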

Other observations

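The 2 clusters named dendritic-like differed in TGF-beta genes. Led by Cd209a and by Ccl22, they held 124 and 28 cells on day 3. The dendritic-like class held 189 cells that day, the rest from the Mgl2-led cluster described above. Cells led by Cd209a held Tgfb1 at 232 (210.1 to 255) and 215 (201 to 230.4) CPM on days 3 and 7 and Tgfbr2 at 35.9 (27.7 to 45.9) and 35.2 (29.5 to 41.6) CPM. Cells led by Ccl22, which also carried Ccr7 and Fscn1, genes of migrating dendritic cells, held Tgfb1 at 97.5 (69.0 to 134) and 50.3 (33.7 to 72.3) CPM and Tgfbr2 at 2.57 (0.0649 to 14.3) and 3.47 (0.420 to 12.54) CPM, from 1 and 2 UMIs. The intervals did not overlap for either gene on either day, while Tgfbr1 was alike within its intervals, at 26.8 (21.9 to 32.5) and 26.0 (14.6 to 42.9) CPM on day 7.

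T cell-like cells led by Trdc, a gamma delta T cell receptor gene, held Tgfbr2 at 136 (114 to 162) CPM on day 7 against 90.5 (76.5 to 106) in those led by Trbc2, with intervals that did not overlap, but on day 14 the intervals overlapped, at 129.7 (89.8 to 181) and 94.980 (63.6 to 136) CPM. A pair of unnamed clusters of day 7 led by Snhg9, of 171 and 168 shallow cells on that day, held Ltbp2 at 197 and 253 CPM, from 32 and 29 UMIs, and Ltbp2 was among the 10 leading genes of the smaller one. None of these differences was tested, since each day is 1 library.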
